A study of Homo sapiens with 3 samples.

Results

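The genes examined were 45 genes of the nuclear receptor system among 20162 protein-coding genes, 41 of them receptors and 4 of them coregulators (NCOR1, NCOA1, NCOA2 and NCOA3). They were taken by name as the nuclear receptors other than the REV-ERB, ROR and THRA genes, together with these coregulators, and the androgen receptor gene was not among them. Each gene was asked whether a CRY1 peak lay close to it in the chromatin of C4-2 cells. A gene counted as close at a start site when a peak's summit, the base of highest read pileup, fell at most 5 kb from an annotated transcription start site (TSS) of the gene. A wider link was a summit within 50 kb of the gene body.

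Nuclear receptors are transcription factors that are switched by small fat-soluble ligands such as retinoids, thyroid hormone, bile acids, oxysterols and steroids, although for several of them, called orphans, no ligand is established. Many bind DNA as a heterodimer with a retinoid X receptor (RXR), on repeats of the hexamer AGGTCA, while steroid receptors bind as homodimers. Bound receptors exchange corepressors such as NCOR1 for coactivators such as NCOA1, NCOA2 and NCOA3. CRY1 is a cryptochrome that represses the CLOCK-BMAL1 dimer on E-boxes, most often the hexamer CACGTG, and cryptochromes are also known to bind several nuclear receptors as proteins.

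The study mapped CRY1 by chromatin immunoprecipitation and sequencing in C4-2, an established line of castration-resistant human prostate cancer. Its 3 libraries were 2 CRY1 immunoprecipitates and 1 input, all labelled as vehicle and all from cells held in hormone-proficient medium. The sole condition was this one, so the results describe where summits lay and not how they changed. The peaks were called on the pooled immunoprecipitates, so that no peak has a replicate error, the read depth is unknown, and the intervals below cover the counting of genes or summits only. Of 2551 peaks, 2549 lay on chromosomes 1 to 22 and X and entered the analysis.

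Such a summit near a start site was found for 7 of the 45 genes: RARA, NR1H3, RXRA, NR2F2, ESRRA, NR4A3 and NR6A1. This was 15.6% (95% Wilson interval 7.75 to 28.8), against 8.22% of all protein-coding genes, a share just inside that interval. Within 50 kb of the gene body the count was 11 of 45, or 24.4% (14.2 to 38.7), against 22.1% of all genes, which is near the background. The 4 genes added by the wider link were THRB, NR1H4, NR4A1 and NR5A1. When a summit had to have the gene's own TSS as the nearest protein-coding TSS, 6 genes remained, or 13.3% (6.26 to 26.2), against 6.72% of all genes. NR1H3 was lost by that requirement.

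The genes were longer than most and had more annotated TSS, which gives a summit more places to be counted. Their median length was 85.6 kb, against 27.2 kb for all protein-coding genes, and their median number of TSS was 8 against 5. Of all genes with 1 to 3 TSS, 4.52% had a summit within 5 kb, and this share was 9.24% for 4 to 10 TSS and 12.2% for 11 or more. Among the 45 genes the counts in these classes were 1 of 5, 5 of 23 and 1 of 17. The part of TSS number in the share of the 45 genes was not tested further.

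The distance from a TSS to the nearest summit had a median of 265 kb over the 45 genes (interval of the median 161 to 407 kb), against 288 kb over all genes on chromosomes with a peak. The 7 genes were defined by this same measure, so their nearness is not a separate result. Among all protein-coding genes, the share with a summit rose only from 8.22% within 5 kb to 9.93% within 10 kb. Among the 45 genes, the last inside the 5 kb limit was RXRA at 2059 bp, and the first outside it was THRB at 25454 bp. Over 100 kb away lay 31 genes (68.9%), against 70.1% of all genes, and over 1 Mb away lay 5 genes (11.1%), against 22.9% of all genes.

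**Figure D1:**
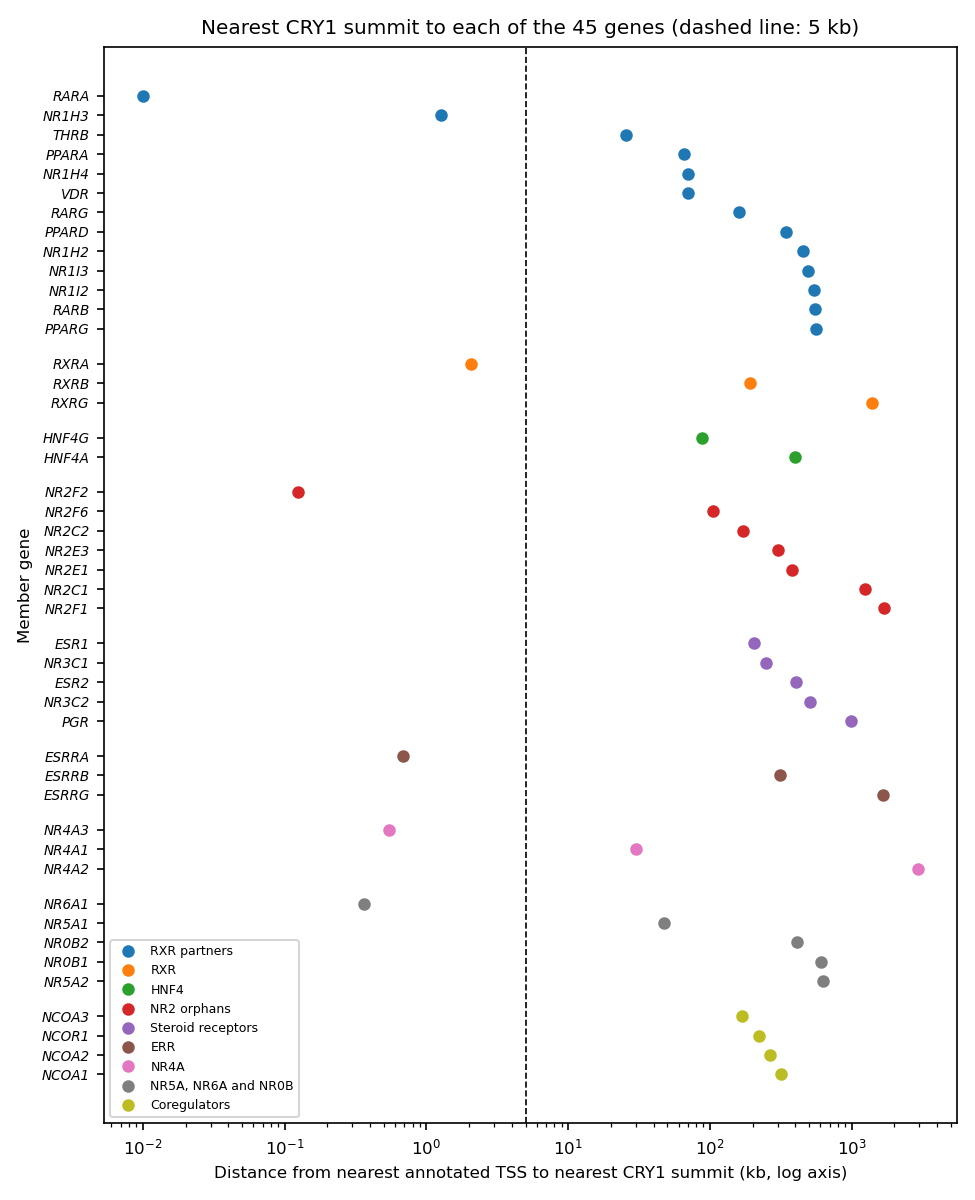
Distance in kb (log axis) from the nearest annotated TSS of each of the 45 genes to the nearest CRY1 summit, with genes grouped and coloured by receptor class and a dashed line at 5 kb. The 7 genes left of the line lie between 10 bp and 2059 bp from a summit, and no gene lies between 2059 bp and 25454 bp.

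The sequences under the summits are shown first. All 7 genes had an E-box, CACGTG, within 50 bp of a summit near a TSS, and each had exactly 1 such summit. Of all genes with a summit within 5 kb, 56.7% had such an E-box, and of those with 2 or more summits 69.0% did. By summit it was 7 of 14, or 50%, against 44.8% of all summits near a protein-coding TSS. The share of all genes with exactly 1 such summit was not computed, and the 7 of 7 was not tested. The lines below give the hg19 plus strand around the E-box summit near a TSS of each of these genes, for RXRA also around its strongest summit, which lies farther from a TSS, and around 1 summit at THRB, 5′ to 3′, as windows of 101 bases centred on the summit or, where the window touches an annotated untranslated region, as 30 bases around the E-box. Capitals mark CACGTG and the related hexamers CACGTT and CACGCG on either strand, so that CACGCG appears as CGCGTG where it lies on the minus strand.
NR6A1 chr9:127533902-127534002: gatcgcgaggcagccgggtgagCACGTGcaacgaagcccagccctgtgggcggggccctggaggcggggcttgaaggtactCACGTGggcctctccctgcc
NR2F2 chr15:96875585-96875685: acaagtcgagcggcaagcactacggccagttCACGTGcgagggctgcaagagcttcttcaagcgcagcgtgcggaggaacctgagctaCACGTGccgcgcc
RARA chr17:38474518-38474547: tttcagcctccgCACGTGactcgctatggc
NR1H3 chr11:47290947-47290976: ggcggtgcacctCACGTGcatgtgtagcat
RXRA chr9:137261708-137261808: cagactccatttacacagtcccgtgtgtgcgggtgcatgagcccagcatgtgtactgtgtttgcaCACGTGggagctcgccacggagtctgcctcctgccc
RXRA chr9:137252933-137253033: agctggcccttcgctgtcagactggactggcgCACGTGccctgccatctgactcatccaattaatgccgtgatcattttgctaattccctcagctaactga
ESRRA chr11:64072270-64072299: gtgaggcggacgCACGTGgccccgcccttc
NR4A3 chr9:102583319-102583419: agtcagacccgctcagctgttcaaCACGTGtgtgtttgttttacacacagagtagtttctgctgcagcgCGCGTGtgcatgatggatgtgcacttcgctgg
THRB chr3:24181582-24181682: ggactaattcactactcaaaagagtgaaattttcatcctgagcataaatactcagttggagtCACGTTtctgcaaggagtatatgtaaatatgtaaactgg
The NR6A1 and NR2F2 windows each held a pair of E-boxes, whose starts lay 59 bp apart at NR6A1 and 57 bp apart at NR2F2. The first RXRA window is the one near a TSS and the second is that of the strongest RXRA summit. The THRB window held CACGTT and no CACGTG, although the called peak held a CACGTG centred 204.5 bp from the summit.

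The partners of RXR are the class that binds DNA as heterodimers with it. Of these 13 genes 2 had a summit within 5 kb (RARA and NR1H3), or 15.4% (4.33 to 42.2), against 8.22% of all genes. Within 50 kb of the body 4 of 13 had one, or 30.8% (12.7 to 57.6), against 22.1% of all genes. With the gene's own TSS as the nearest, 1 of 13 remained (7.69%), against 6.72% of all genes. These shares cannot be set apart from the background. RARA encodes retinoic acid receptor alpha, which binds all-trans retinoic acid. Its 2 peaks lay side by side at an internal TSS, and the peak that held the E-box was the weaker. The first, chr17:38474459-38474632, had a fold enrichment (summit pileup divided by local background) of 4.33, with a −log10 q of 4.74. Its summit lay 10 bp downstream of that TSS, with CACGTG centred 14.5 bp away. The second, chr17:38474719-38474917, lay in the first intron of the canonical transcript, 326 bp from the same TSS, and had a fold enrichment of 6.53 without an E-box. From the canonical TSS the nearer of the RARA summits was 9115 bp away, so that RARA counted only through the alternative start.

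NR1H3 encodes liver X receptor alpha, an oxysterol receptor that controls cholesterol efflux. Its only linked peak, chr11:47290896-47291148, had a fold enrichment of 5.63, with a −log10 q of 6.0. The summit lay 1262 bp downstream of a TSS near the 3′ end of NR1H3 and 370 bp past the end of the gene, but only 27 bp from a TSS of MADD, the neighbouring gene. The E-box here was centred 7.5 bp from the summit, and the link to NR1H3 rested on position alone.

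THRB encodes thyroid hormone receptor beta, and both of its summits lay deep in the gene, in introns 8 and 9 of the canonical transcript. The stronger, chr3:24181405-24181701, had a fold enrichment of 7.15 and ranked 517 of 2549 peaks, with CACGTT centred 14.5 bp from its summit. The weaker, chr3:24171052-24171147, had a fold enrichment of 4.23 and a CACGTG centred 29.5 bp away. These summits were 25454 and 35977 bp from the nearest THRB TSS, and no protein-coding TSS of another gene was nearer.

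NR1H4, the bile acid receptor FXR, had 2 summits that lay 8967 and 9139 bp past the end of the gene, with fold enrichments of 5.89 and 4.77. They lay 302 and 130 bp from a TSS of GAS2L3, and neither window held CACGTG. The other partners of RXR had no summit within 50 kb. The closest were PPARA at 65.3 kb and VDR, the vitamin D receptor, at 70.3 kb from a TSS, followed by RARG at 161 kb, PPARD at 347 kb, NR1H2 at 452 kb, NR1I3 at 489 kb, NR1I2 at 538 kb, RARB at 548 kb and PPARG at 563 kb.

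RXRA, which encodes retinoid X receptor alpha, had the most summits of the 45 genes, with 9 linked to it. Of these, 6 lay in the first intron within 15.9 kb, 2 lay upstream of the gene and 1 lay downstream, over a span of 192 kb. The nearest protein-coding TSS was that of RXRA for each of them. The strongest, chr9:137252685-137253669, was 985 bp wide with a fold enrichment of 11.2, a −log10 q of 27.1 and a rank of 148 among 2549 peaks. A neighbouring peak, chr9:137251252-137251698, had a fold enrichment of 8.70 and ranked 310. Both held CACGTG, centred 15.5 and 14.5 bp from the summit, and between them lay another peak of fold enrichment 5.28 without one.

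These strongest RXRA summits were not the ones that put RXRA within 5 kb of a TSS. They lay 10834 and 12236 bp upstream of the nearest RXRA TSS, which is an internal one. The summits inside the limit were weaker, with fold enrichments of 3.92 at 2059 bp and 5.14 at 3630 bp upstream of internal starts, and the first of these had a CACGTG within 50 bp that fell just past the end of the called interval. The remaining summit in the intron had a fold enrichment of 5.60 and held CACGTG. The upstream pair, at 33720 and 32698 bp from the gene, had fold enrichments of 4.44 and 4.84, the former with 2 copies of CACGTT. The downstream summit, 34884 bp past the gene, had a fold enrichment of 4.47 and held CACGTG.

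Few genes held as many summits in their body as RXRA. At least 1 summit lay within the body of 1382 genes (6.85%), including 5 of the 45 (THRB, RARA, RXRA, NR2F2 and NR6A1), and at least 2 within that of 312 genes (1.55%), including 4 of the 45. At least 6 lay in 4 protein-coding genes, and RXRA was 1 of them. RXRB and RXRG, which encode the other retinoid X receptors, had no link, with nearest summits 191 and 1394 kb from a TSS.

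**Figure D2:**
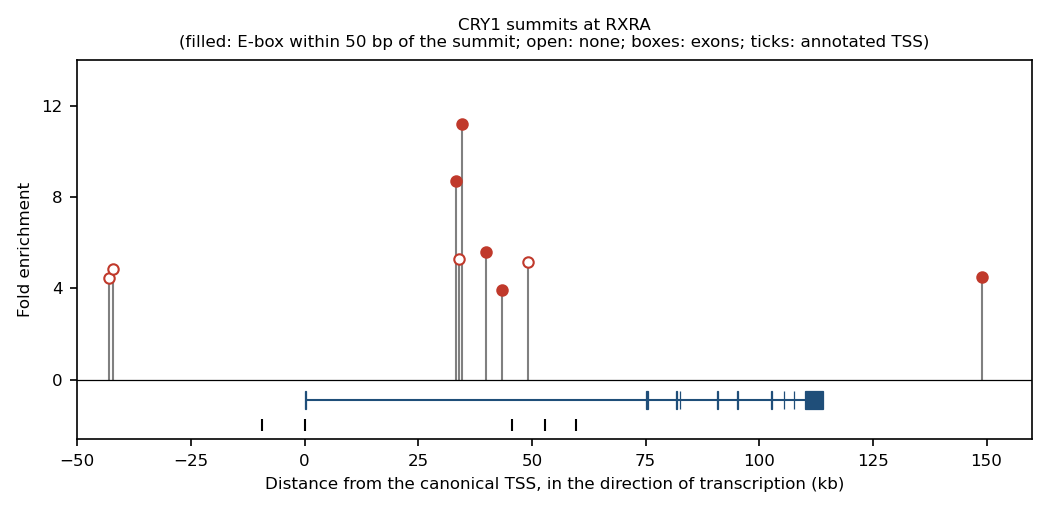
Fold enrichment of the 9 CRY1 peaks linked to RXRA against the distance of their summits from the canonical TSS in kb, with the exons as boxes and annotated TSS as ticks below, and filled points for summits with an E-box within 50 bp. The 6 intronic summits sit together between the first exon and the next one, and the tallest of them reaches 11.2.

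Of the 7 NR2 orphan receptors, NR2F2 alone had a summit within 5 kb (14.3%, 2.57 to 51.3, against 8.22% of all genes) or within 50 kb of the body. It encodes COUP-TFII, a receptor with roles in vessel and mesenchyme development. Its main peak, chr15:96875322-96875768, had a fold enrichment of 9.47, with a −log10 q of 20.2, and ranked 244 of 2549. The summit lay in exon 1 of the canonical transcript, in coding sequence, 1706 bp downstream of the canonical TSS and 131 bp upstream of an internal one, with E-boxes centred 16.5 and 40.5 bp away. The second peak, chr15:96875858-96875970, lay in intron 1 with a fold enrichment of 4.39 and no E-box. These 2 E-boxes in NR2F2, both under the same summit, were the only ones within 50 bp of a summit among the 25 in the coding sequences of the 45 genes, which 19 of the genes carried. The share over the coding sequences of all genes was not computed. The nearest summits of the other NR2 orphans, by distance from a TSS, were at 105 kb (NR2F6), 172 kb (NR2C2), 301 kb (NR2E3), 382 kb (NR2E1), 1241 kb (NR2C1) and 1692 kb (NR2F1).

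The HNF4 receptors, which drive liver and gut gene programmes, had no link. HNF4G had its nearest summit 88.0 kb from a TSS and HNF4A 398 kb from a TSS.

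No steroid receptor gene in the list had a summit within 50 kb, 0 of 5, for which the Wilson interval reaches 43.4%. By distance from a TSS, the nearest summit was at 204 kb for ESR1 and 407 kb for ESR2, the oestrogen receptors. It was at 249 kb for NR3C1, the glucocorticoid receptor, 510 kb for NR3C2, the mineralocorticoid receptor, and 980 kb for PGR, the progesterone receptor. From the gene body it was nearer for ESR2 (231 kb) and NR3C1 (137 kb). With 5 genes this count cannot be set apart from the background shares.

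Of the oestrogen-related receptors, orphans that control mitochondrial and energy genes, ESRRA had summits and ESRRB (313 kb) and ESRRG (1648 kb) had none. Upstream of ESRRA 2 weak peaks lay next to each other. The summit nearer to the gene, in chr11:64072223-64072328, had a fold enrichment of 4.11 and lay 680 bp upstream of a TSS, with CACGTG centred 4.5 bp away. The farther one, 931 bp upstream with a fold enrichment of 4.51, had no E-box and lay 911 bp from a TSS of CATSPERZ. The summit past the gene, with a fold enrichment of 4.05, lay 3485 bp from an ESRRA TSS but 210 bp from one of TRMT112. The 2 summits over 40 kb beyond the gene were weaker, at 2.84 and 3.17, and lay 278 and 26 bp from a TSS of RPS6KA4.

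The NR4A receptors are immediate-early genes that respond to stress and growth signals. NR4A3 had 2 narrow peaks upstream of its TSS. The first, chr9:102583320-102583403, had a fold enrichment of 3.06, with a −log10 q of 1.64, at 768 bp upstream, and held CACGTG and CACGCG. The second, 549 bp upstream, had a fold enrichment of 3.66, with a −log10 q of 1.80, without either. Both fall out at a q of 0.01, so that NR4A3 rested on the weakest evidence of the 7 genes. NR4A1 had 1 summit of fold enrichment 4.68 that lay 27143 bp past its body, but only 6946 bp from a TSS of SMIM41. NR4A2 had the longest distance from a TSS to a summit of the 45 genes, 2944 kb.

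NR6A1 encodes the germ cell nuclear factor, an orphan receptor that represses pluripotency genes. It had the strongest CRY1 peak of the 45 genes. This peak, chr9:127533112-127534715, was 1604 bp wide with a fold enrichment of 12.5, with a −log10 q of 61.5, and ranked 108 of 2549 by fold enrichment and 26 by q. Its summit lay 362 bp upstream of a TSS, with E-boxes centred 25.5 and 33.5 bp away on either side. A second peak in intron 1, 1736 bp from a TSS, had a fold enrichment of 3.72 and held 1 AGGTCA and no E-box. NR5A1, the steroidogenic factor of adrenal gland and gonad, had 1 summit of fold enrichment 5.11 that lay 27891 bp from its body and 166 bp from a TSS of ADGRD2, with CACGTG. NR0B2, NR0B1 and NR5A2 had none within 50 kb, with nearest summits 413, 609 and 626 kb from a TSS.

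**Figure D3:**
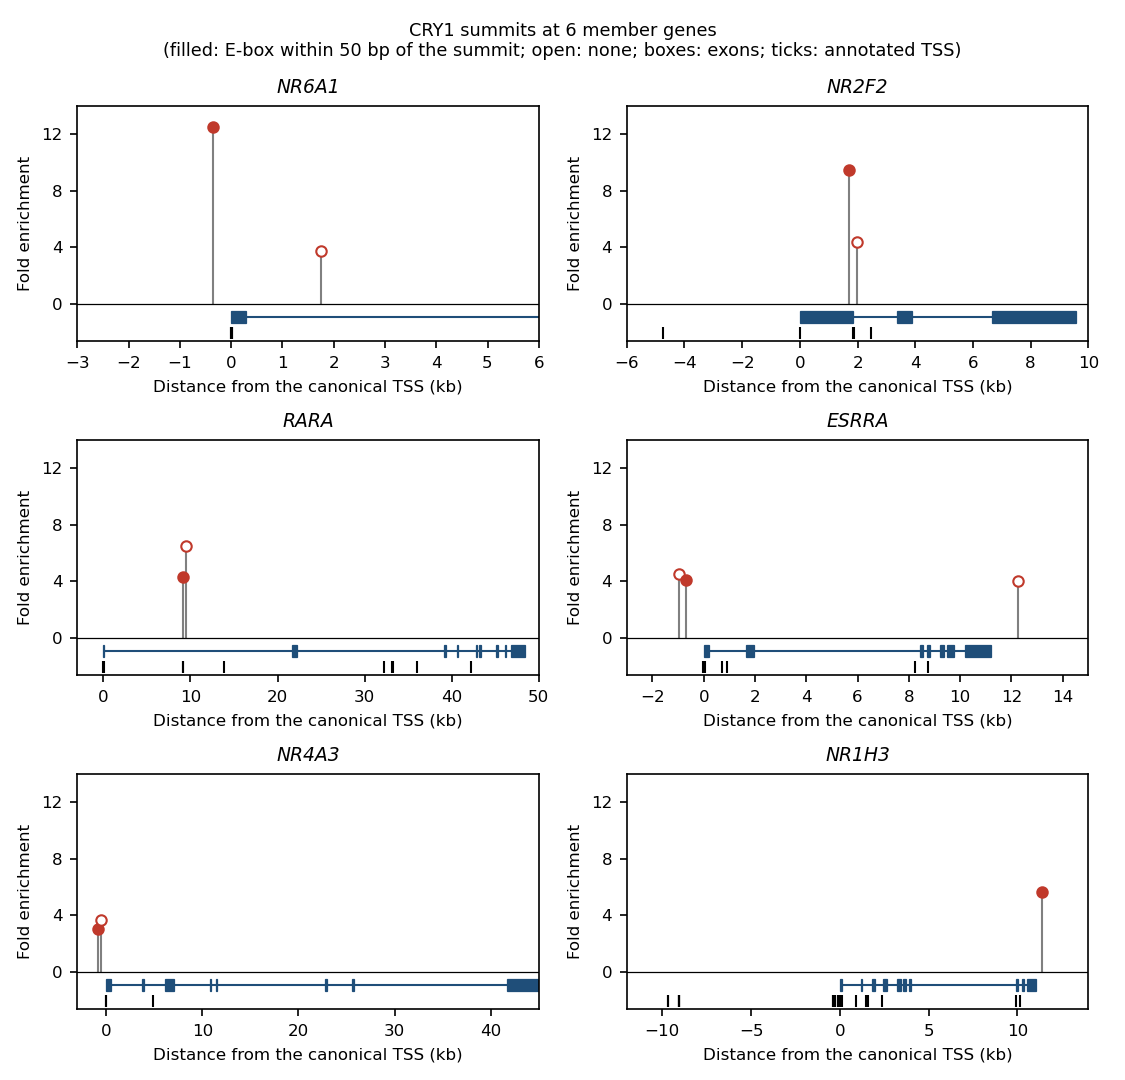
Fold enrichment of CRY1 peaks at the 6 genes other than RXRA that met the 5 kb rule, plotted against distance from the canonical TSS in kb, with exons as boxes, annotated TSS as ticks and filled points for summits with an E-box within 50 bp. NR6A1 and NR2F2 reach 12.5 and 9.47, and the other 4 stay at or below 6.53.

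None of the 4 coregulators had a link. By distance from a TSS, the nearest summit was at 168 kb for NCOA3, 220 kb for NCOR1, 265 kb for NCOA2 and 318 kb for NCOA1. The Wilson interval of 0 of 4 reaches 49.0%. The shares of all genes were 8.22% within 5 kb and 22.1% within 50 kb of the body. With 4 genes the count cannot be set apart from these shares.

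The summits near these genes were mostly of ordinary or low strength. The 14 summits within 5 kb of a TSS had a median fold enrichment of 4.36 (quartiles 3.95 and 5.50, range 3.06 to 12.5), and the interval of that median, 3.72 to 6.53, took in the 5.21 of all 1772 summits within 5 kb of a protein-coding TSS. Their median −log10 q was 3.75 against 6.02, and 10 of the 14 lay below the median fold enrichment of that set. The 14 summits came from 7 genes, 6 of which had 2 or more. The interval of the median and those of the hexamer shares below take summits of the same gene as independent, which can make them too narrow. The 15 summits near the body only had a median fold enrichment of 4.84, with a range of 2.84 to 11.2. Of the 29 linked summits 3 ranked in the top 250 of all 2549, which is near the share of the whole list. They were at NR6A1, RXRA and NR2F2. For 9 of the 29 the nearest protein-coding TSS belonged to another gene, which was the case for 3 of the 14 near a TSS.

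**Figure D4:**
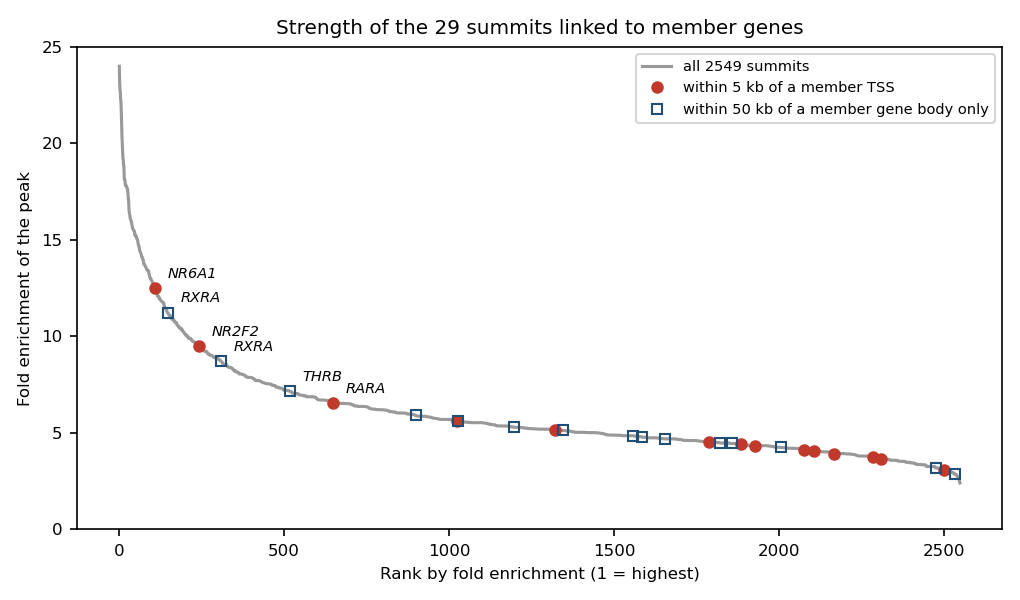
Fold enrichment of all 2549 CRY1 peaks in rank order (grey line), with the 14 summits within 5 kb of a TSS of the 45 genes as filled circles and the 15 near the body only as open squares. The labelled points are the strongest peak of NR6A1, NR2F2, THRB and RARA and the 2 strongest of RXRA, between rank 108 and rank 650, and the other peaks of these genes lie lower on the curve.

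Hexamers were counted on both strands in the 101-bp windows. CACGTG was in 7 of the 14 windows near a TSS, or 50% (26.8 to 73.2), against 44.8% of all windows near a protein-coding TSS, and in 6 of the 15 near the body only, or 40.0% (19.8 to 64.3), against 47.8% of all summit windows. In windows centred 1000 bp to each side of all summits it was in 1.63%. The E-box share at these genes was thus near that of the whole list. At the level of genes, 56.7% of all genes with a summit within 5 kb had a CACGTG under one of them, and 69.0% of those with 2 or more summits, a class that held 6 of the 7 genes here and 26.3% of all such genes. No test was made of the 7 of 7.

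The hexamer bound by many of the receptors themselves, AGGTCA, was in 2 of the 14 windows near a TSS (ESRRA with 2 copies and NR6A1 with 1) and in none of the 15 others. It was in 5.42% of all windows near a protein-coding TSS, 5.26% of all summit windows and 6.81% of the flanking windows. For the other hexamers the 14 windows near a TSS are likewise set against all windows near a protein-coding TSS, and the 15 others against all summit windows. AGAACA, part of the element of steroid receptors other than the oestrogen receptors, was in 0 of 14, against 2.93%, and in 1 of 15, against 4.32%. GGGCGG, the hexamer of SP factors, was in 2 of 14, against 34.4%, and in 4 of 15, against 27.0%. CACGTT was in 0 of 14, against 6.26%, and in 2 of 15, against 6.63%. CACGCG was in 2 of 14, against 13.6%, and in 1 of 15, against 10.9%. These counts are too small to place any of these shares above or below the list.

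Most E-boxes in the 45 genes had no summit. The bodies of the receptor and coregulator genes together held 584 copies of CACGTG, a median of 8 per gene. Of these, 8 (1.37%) lay within 50 bp of a summit. The share was 0.496% of the 275867 copies on chromosomes 1 to 22, X and Y. That figure includes copies outside genes, and the share in the bodies of all genes was not computed. RXRA held 43 copies, 4 of them near a summit, and NR2F2 had 2 near the same summit. RARB held 67 and none was near a summit. A copy within 500 bp of a TSS was present in 25 of the 45 genes (55.6%), against 38.2% of all genes. Of the 25 genes, 4 had a summit within 5 kb (16.0%), the share of all genes with such a copy being 16.0% as well. Of the 20 genes without, 3 had a summit (15%), against 3.41% of all such genes. These 3 were NR1H3, RXRA and NR4A3. Each had an E-box under a summit near a TSS, but more than 500 bp from that TSS. With 3 genes, this difference was not tested.

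Genes that act around the receptors were examined as 4 further lists with 89 genes in all, of which 13 (14.6%, 8.74 to 23.4) met the 5 kb rule, against 8.22% of all genes. These lists were chosen with earlier results of the data known. Their TSS number and gene length were not compared with those of all genes, and the share was not tested. The interval of each single list held the share of all genes. Of 23 other coregulators 4 had a summit within 5 kb (17.4%, 6.98 to 37.1). They were the arginine methyltransferase PRMT1 (fold enrichment 5.69), the PGC-1 family coactivators PPRC1 (5.14) and PPARGC1B (3.06) and the deacetylase HDAC3 (4.22), whose summit was nearer to a TSS of RELL2. Of 29 genes of ligand metabolism 2 had one (6.90%): HSD11B2, which inactivates cortisol (6.69), and CYP27B1, which activates vitamin D (8.30), the latter nearer to a TSS of METTL1. Of 13 ligand carriers and chaperones 3 had one (23.1%, 8.18 to 50.3). All of them were cochaperones or chaperones of steroid receptors: FKBP5 (5.0), STIP1 (6.63) and HSP90AB1 (4.60).

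Of 24 known receptor target genes 4 had a summit within 5 kb (16.7%, 6.68 to 35.9), against 8.22% of all genes, a share inside that interval. These were ABCA1, the cholesterol exporter and an LXR target (6.86), SREBF1, a lipogenic factor and LXR target (6.94), KLF9, a target of glucocorticoid and thyroid hormone receptors (6.96), and CPT1A, which carries fatty acids into mitochondria (4.69). Of NR1D1, NR1D2, THRA, RORA and RORB, which were kept out of the 45, the first 3 had summits within 5 kb, with top fold enrichments of 17.8 at NR1D1 and at NR1D2 and 7.70 at THRA. Those at NR1D1 and NR1D2 were above the 12.5 of the strongest peak at the 45 genes. RARA lies 209 kb from NR1D1 and 215 kb from THRA, and THRB lies 137 kb from NR1D2.

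**Figure D5:**
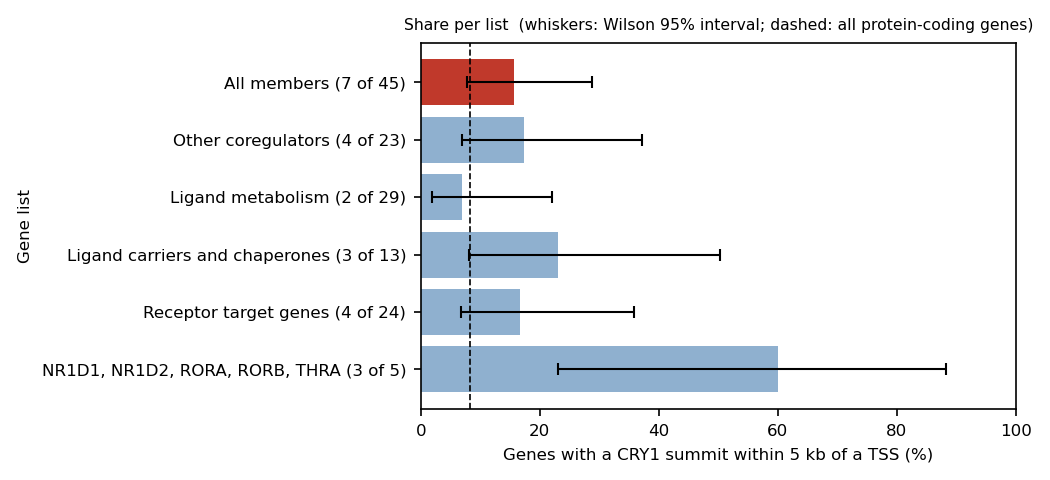
Percent of genes with a CRY1 summit within 5 kb of a TSS in the 45 genes and in 5 other lists, with Wilson 95% intervals as whiskers and all protein-coding genes (8.22%) as a dashed line. The 45 genes stand at 15.6%, and NR1D1, NR1D2, RORA, RORB and THRA together at 60.0%.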

How the data were processed

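The libraries were 2 CRY1 immunoprecipitates and 1 input from C4-2 cells, grouped by title. The authors aligned reads to hg19 with bowtie2 and called peaks with MACS2 on the pooled immunoprecipitates at q below 0.05. Use of the input as control is presumed. The deposited list gives per peak a score (the whole part of 10 times −log10 q), a fold enrichment (a linear ratio) and −log10 p and q values, all made by the authors. Pooling hides whether a peak was in 1 replicate or both.

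Summits were linked to protein-coding genes of GENCODE release 44 on GRCh37, by any annotated TSS (5 kb) or the gene body (50 kb). The 2 peaks on unplaced contigs were left out. Hexamers were counted within 50 bp of summits. Shares have Wilson 95% intervals, and medians have binomial order-statistic intervals. No test was run, since the list holds no replicate values. The linking and counting were tested on simulated data. Some genes are not reported here and were left out of the lists. The genes and lists were chosen with earlier results of these data known. Every gene with a linked summit was named with its values, and the others with their distances; of the 4 further lists, each gene with a summit within 5 kb was named. Python 3.11.15, pandas 2.3.3, numpy 2.4.6, scipy 1.17.1 and pysam 0.24.0 were used. Alternatives changed the peak threshold, transcripts, distances, peak position, window and strength measure.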

Additional observations from a re-analysis of the deposited data

How the results depend on the processing

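With the canonical transcript alone, 4 of the 45 genes had a summit within 5 kb (ESRRA, NR2F2, NR4A3 and NR6A1), against 6.81% of all genes, because RARA, RXRA and NR1H3 counted through other annotated TSS. When the summit had to lie inside the gene body, 5 genes remained in place of 11, against 6.85% of all genes. Under the other alternatives the 5-kb count was 5 to 7 genes, with 5.49% to 9.93% of all genes, and the 50-kb count 8 to 11, with 12.1% to 22.2% of all genes. At a fold enrichment of at least 5, the median of the near-TSS summits was 6.53, against 6.36 in the list filtered alike. With the strongest summit of each gene, an alternative chosen after seeing the data, it was 5.63. Leaving out RXRA, also chosen then, kept it at 4.36. The E-box share ranged from 28.6% (peak midpoint, against 29.2% of all) to 60.0% (fold enrichment of at least 5, against 53.6%). The median distance ranged from 265 to 360 kb. It was 347 kb against 307 kb for all genes with the canonical transcript, the opposite order to the main 265 against 288, and was not above that of all genes under the other alternatives. The 4 further lists together had 9 to 15 of 89 genes with a summit, with 5.49% to 9.93% of all genes. No paired analysis was possible because the authors pooled the immunoprecipitates before peak calling, and for the same reason no replicate could be left out. The unknown depth limits the list: a gene without a summit had no called peak, which does not show that CRY1 was absent there.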

Other observations

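All 4 of the 45 genes on chromosome 9 (NR4A3, NR5A1, NR6A1 and RXRA) had a linked summit, where 27.4% of the 799 protein-coding genes of that chromosome and 22.1% of all protein-coding genes did, and together they held 14 of the 29 linked summits, 9 of them at RXRA. Chromosome 9 held 136 of all 2549 summits (5.34%). The 29 summits lay on 6 chromosomes. NR5A1 and NR6A1 are separated by 9.86 kb, and the strongest peak of the 45 genes lay at the far end of NR6A1 from NR5A1. These are values with no test.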
